A study of Sus scrofa with 6 samples.

Results

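Annexins, ferlins and TRIM72, the proteins that patch wounds in the muscle cell membrane and take part in myoblast fusion, were followed at the RNA level in differentiating porcine satellite cells (PSCs). The members were 10 genes, found as the rows of the deposited table whose pig Ensembl identifier carries the symbol of 1 of 7 annexins (ANXA1, ANXA2, ANXA4, ANXA5, ANXA6, ANXA7 and ANXA11), 2 ferlins (DYSF and MYOF) or TRIM72. Each symbol matched 1 of the 28266 rows, and all 10 members passed the minimum of a mean of 1 FPKM over the 6 libraries, as did 14060 rows in all.

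PSCs are muscle stem cells, which were isolated from the limb muscles of 3-day-old male Yorkshire pigs, preplated to separate them from fibroblasts and grown on Matrigel. All cells used here are taken to have received the negative control (NC) siRNA, and were then moved to low horse serum to differentiate. The treatment is read from the letter N of the sample titles, which a figure of the paper uses for its NC groups. NC24h (replicates 4, 5 and 6) was harvested at 24 h of differentiation and NC36h (replicates 4, 5 and 6) at 36 h, the time in the series title and the paper, whereas the labels of those samples read 48 h. The sources do not say whether the 3 libraries of a group came from different pigs, so the p-values measure the spread between these libraries, which may be technical.

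When a muscle fibre tears, calcium flows in through the wound and sets off its repair. Annexins are soluble proteins that bind acidic phospholipids when calcium rises, and they gather at the wound in a cap. Ferlins are large proteins with many C2 domains, anchored in vesicle and surface membranes, that act in the calcium-driven fusion of membranes. TRIM72, also called MG53, is a muscle protein that carries vesicles to the wound, and loss of DYSF causes a form of muscular dystrophy in humans.

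The libraries held between 16248619 and 16773012 fragments in NC24h and between 17872094 and 21721227 in NC36h, in the genes whose whole fragments could be recovered from the FPKM values (fragments scaled to gene length and library size). The extraction note of the labels names another tissue than the skeletal muscle of their tissue field, and the muscle identity was checked with marker genes. DES, the intermediate filament of muscle, lay at 1693 ± 211 FPKM (SD, n = 3) in NC24h and 3182 ± 268 in NC36h, MYOD1, the myogenic determination factor, at 316 ± 66.3 and 254 ± 7.12, and ACTA1, skeletal muscle actin, at 1248 ± 710 and 5572 ± 486. Of 12 myogenic markers tested, 10 rose and 0 fell between the groups (limma adjusted p under 0.05), where 16.5% of all genes tested rose and 34.4% fell. PTPRC, which marks blood cells, and KDR, which marks endothelium, were listed at 0 in all 6 libraries. Other markers of these cells were detected at low levels, with CD14 at 2.59 ± 0.615 and 1.18 ± 0.232 FPKM, CD68 at 2.30 ± 0.125 and 1.28 ± 0.561 and PECAM1 at 1.31 ± 0.248 and 1.39 ± 0.337 in NC24h and NC36h. The summed FPKM ran from 4.63 to 5.89 in NC24h and from 2.05 to 3.37 in NC36h over 6 immune markers, and from 1.10 to 1.60 and from 1.01 to 1.67 over 3 endothelial ones. NC24h replicate 6 stood apart, with a summed FPKM of the 12 myogenic markers of 5311 against 9449 and 8312 in replicates 4 and 5, and of 9 cell cycle genes of 152 against 58.7 and 79.0.

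Between 24 h and 36 h the ferlins moved in opposite directions and the annexins divided into those that fell and those whose change did not pass the threshold. The mean FPKM of DYSF rose 6.42-fold and that of TRIM72 2.36-fold, while MYOF fell to 0.324 of its level at 24 h and ANXA5 to 0.416. Of the 10 members, 6 had a limma adjusted p under 0.05 (moderated linear model on log2(FPKM + 1), Benjamini-Hochberg over all genes), where 50.9% of all genes tested did. DYSF and TRIM72 were the 2 that were higher at 36 h, against a background of 16.5% higher. MYOF, ANXA5, ANXA4 and ANXA1 were the 4 that were lower, against a background of 34.4% lower. On the deposited values, in 8 members the 3 libraries of one group lay wholly above those of the other, where 63.6% of all genes did so. Of these, 2 were higher (background 21.0%) and 6 lower (background 42.6%). These shares lay near the background. An absolute log2 change of at least 1 with a call was found in 4 members, DYSF, MYOF, TRIM72 and ANXA5, where 8.36% of all genes had one. The median log2 change was -0.17 over the members and -0.16 over all genes tested.

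**Figure D1:**
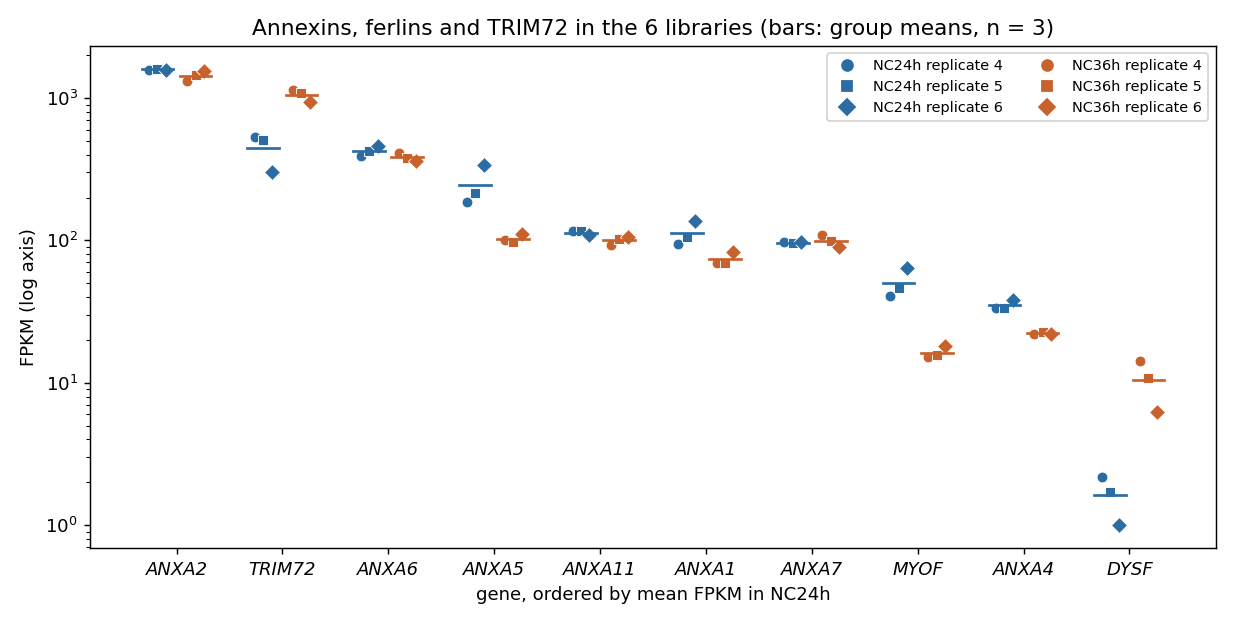
FPKM of each member (log axis) in the 6 libraries, blue for NC24h and orange for NC36h, with a marker shape for each replicate number and a bar at each group mean (n = 3). DYSF and TRIM72 lie higher in every NC36h library than in any NC24h library, whereas MYOF, ANXA5, ANXA4 and ANXA1 lie lower.

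FPKM is scaled to gene length, so levels are set side by side between genes here, as far as the length used for each gene holds. In NC24h the mean levels ran from 1590 FPKM for ANXA2 through TRIM72, ANXA6, ANXA5, ANXA11, ANXA1, ANXA7, MYOF and ANXA4 down to 1.62 for DYSF. The libraries of TRIM72 and ANXA6 overlapped in that group, as did those of ANXA11, ANXA1 and ANXA7 between neighbours in the order. In NC36h the order was ANXA2, TRIM72, ANXA6, ANXA5, ANXA11, ANXA7, ANXA1, ANXA4, MYOF and DYSF, in which ANXA5, ANXA11 and ANXA7 overlapped with their neighbours. ANXA2 ranked 34 among all rows by its mean FPKM in NC24h and 44 in NC36h, and TRIM72 moved from rank 186 to rank 61. DYSF moved from rank 12938 to rank 6569.

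Ferlins were compared first. DYSF encodes dysferlin, the ferlin of adult muscle, which lies in the surface membrane and the T-tubules and helps to reseal wounds. Its gene (ENSSSCG00000008312) spans 71020143 to 71237658 of chromosome 3 (Sscrofa11.1, as all positions here). Its FPKM was 2.17, 1.69 and 0.995 in NC24h replicates 4, 5 and 6, against 14.2, 10.7 and 6.28 in NC36h replicates 4, 5 and 6. The lowest NC36h library thus stood above the highest NC24h library, although both groups were widely spread, with an SD of 36.5% of the mean at 24 h and 38.1% at 36 h. The mean rose 6.42-fold. On the log2(FPKM + 1) scale the change was 2.08 (SE 0.29, adjusted p by limma = 0.00223), which understates the rise of a gene at so low a level, and limma voom on the recovered fragments gave 2.68. DYSF rested on 213, 161 and 95 fragments in NC24h, for which counting alone gives an error of about 8.33%, so the replicate spread was wider than the counting error. Its change was higher than that of 99.4% of the genes tested.

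MYOF encodes myoferlin, the ferlin of myoblasts, which is needed for the fusion of myoblasts into large myotubes. Its gene (ENSSSCG00000010476) spans 104770514 to 104941212 of chromosome 14. Its FPKM was 40.9, 46.0 and 63.9 in NC24h replicates 4, 5 and 6, against 15.1, 15.7 and 18.0 in NC36h. All NC36h libraries lay far below those of NC24h and close to each other. The mean fell from 50.3 ± 12.0 to 16.3 ± 1.54 (SD, n = 3 each), a log2 change of -1.55 (SE 0.16, adjusted p by limma = 0.00114), and 0.982% of the genes tested had a lower change.

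The 2 ferlins thus approached each other. DYSF stood at 5.31%, 3.68% and 1.56% of the FPKM of MYOF in NC24h replicates 4, 5 and 6. In NC36h it stood at 94.1%, 68.2% and 34.8%. MYOF remained the higher of the pair in all 6 libraries, by 64.2-fold at most (NC24h replicate 6) and by 1.06-fold at least (NC36h replicate 4). A difference as small as 1.06-fold depends on the gene lengths used for FPKM. The mean difference of log2(FPKM + 1), DYSF minus MYOF, was -4.29 ± 0.66 (SD, n = 3) at 24 h and -0.66 ± 0.66 at 36 h. With 0.1 or 0.01 added to FPKM in place of 1, it was -4.91 or -4.99 at 24 h and -0.71 or -0.72 at 36 h. Adding 1 thus understates the gap at 24 h.

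**Figure D2:**
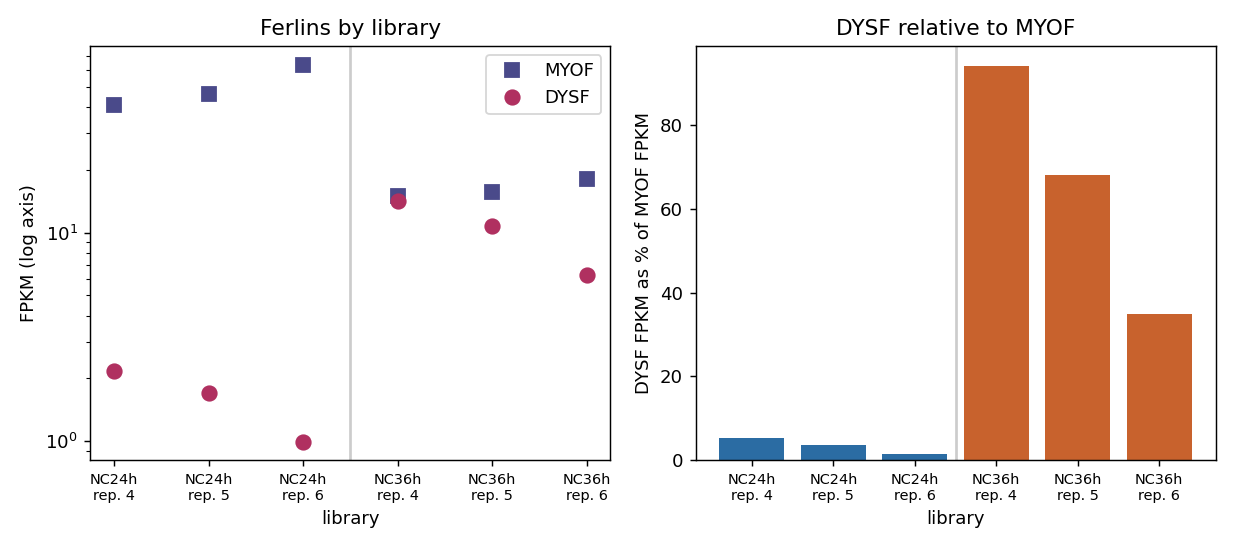
Left, FPKM of MYOF (squares) and DYSF (circles) in each library on a log axis. Right, DYSF FPKM as a percentage of MYOF FPKM in the same library, between 1.56% and 5.31% in NC24h (blue) and between 34.8% and 94.1% in NC36h (orange).

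TRIM72 (ENSSSCG00000007757), at 17286471 to 17297841 of chromosome 3, is made chiefly in striated muscle and, as background, acts with dysferlin and caveolin-3 in resealing. Its FPKM was 536, 506 and 301 in NC24h replicates 4, 5 and 6, against 1148, 1080 and 940 in NC36h. The groups did not overlap, and NC24h replicate 6 was the lowest library by a wide margin. The mean rose 2.36-fold, from 448 ± 128 to 1056 ± 106 (SD, n = 3 each), a log2 change of 1.28 (SE 0.22, adjusted p by limma = 0.00422). TRIM72 was already among the most abundant transcripts at 24 h, when DYSF had 1.62 FPKM. The FPKM of TRIM72 was between 247 and 303 times that of DYSF in NC24h and between 81.0 and 150 times in NC36h.

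Annexins were the most abundant part of the set. Summed over the 7 genes they came to 2497, 2596 and 2765 FPKM in NC24h replicates 4, 5 and 6 and to 2128, 2216 and 2311 in NC36h. On the deposited values the sum was thus lower in each NC36h library. It made up 0.449% ± 0.022 of all FPKM at 24 h and 0.376% ± 0.014 at 36 h (SD, n = 3 each). Median-ratio scaling divides the NC24h libraries by 1.04 to 1.11 and the NC36h ones by 0.937 to 0.955. After that division the annexin sums of NC24h and NC36h overlap, so the lower sum holds on the deposited values only. Among the 7, 3 were lower at 36 h past the threshold (background 34.4%), 0 were higher (background 16.5%) and 4 did not pass, and with so few genes these counts lie near the background. None of the 7 was called higher with median-ratio scaling, quantile normalization or limma voom either, and at an unadjusted p under 0.05 none was higher in the deposited FPKM values.

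ANXA5 (ENSSSCG00000009097), at 102387833 to 102420868 of chromosome 8, encodes the annexin that assembles into ordered arrays on membranes rich in phosphatidylserine, and it fell most among the annexins. Its FPKM was 185, 215 and 341 in NC24h replicates 4, 5 and 6, against 97.3 to 111 in the NC36h libraries. Replicate 6 of NC24h was 70.6% above the mean of replicates 4 and 5, while the NC36h libraries had an SD of 6.88% of their mean. The mean fell from 247 ± 82.9 to 103 ± 7.06 (SD, n = 3 each), a log2 change of -1.21 (SE 0.21, adjusted p by limma = 0.00453). Without NC24h replicate 6 the change was -0.95 and the call held (adjusted p by limma = 0.000727, with a range of 0.000727 to 0.0227 over the 15 alternatives). The share of ANXA5 in the annexin sum went from between 7.40% and 12.3% in NC24h to between 4.39% and 4.79% in NC36h.

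ANXA4 (ENSSSCG00000008336), at 72623311 to 72654591 of chromosome 3, encodes a small annexin that bends membrane edges. It had the lowest level of the 7, at 33.8, 33.7 and 38.0 FPKM in NC24h replicates 4, 5 and 6, against 22.1, 22.7 and 21.9 in NC36h. The groups were narrow and wide apart. The log2 change was -0.64 (SE 0.07, adjusted p by limma = 0.00118), and the call held in all 15 alternatives.

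ANXA1 (ENSSSCG00000005267), at 226414200 to 226431963 of chromosome 1, encodes an annexin of inflammation control and wound resealing. Its FPKM was 94.2, 105 and 137 in NC24h replicates 4, 5 and 6, against 69.4, 69.5 and 82.3 in NC36h. The groups did not overlap, but the gap between the lowest NC24h and the highest NC36h library was small beside the spread within NC24h. The log2 change was -0.58 (SE 0.15, adjusted p by limma = 0.0158). Leaving out NC36h replicate 4 ended the call (adjusted p by limma = 0.0543), as did leaving out NC36h replicate 5 (adjusted p by limma = 0.0593), with changes of -0.54 and -0.55, and over all alternatives the adjusted p ran from 0.00497 to 0.0593.

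ANXA2 (ENSSSCG00000004578), at 111588721 to 111635064 of chromosome 1, encodes the annexin that pairs with S100A10 and links membranes to actin. It was by far the highest member, at 1578, 1606 and 1584 FPKM in NC24h replicates 4, 5 and 6, against 1323, 1446 and 1541 in NC36h. On the deposited values all NC36h libraries lay under the NC24h ones, which differed among themselves by an SD of only 0.935% of their mean. The log2 change of -0.15 (95% interval -0.35 to 0.05, adjusted p by limma = 0.178) did not pass the threshold. ANXA2 alone made up between 57.3% and 63.2% of the annexin sum in NC24h and between 62.2% and 66.7% in NC36h.

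ANXA6, ANXA7 and ANXA11 did not pass the threshold either. ANXA6 (ENSSSCG00000017089), at 71857229 to 71913723 of chromosome 16, encodes the long annexin with a doubled core and was the second annexin by level. Its FPKM was 393, 423 and 458 in NC24h replicates 4, 5 and 6, against 413, 380 and 359 in NC36h, so the groups overlapped (log2 change -0.15, 95% interval -0.35 to 0.06, adjusted p by limma = 0.193). ANXA11 (ENSSSCG00000010331), at 81835205 to 81879565 of chromosome 14, is known to tether RNA granules to lysosomes. It had 116, 116 and 109 FPKM in NC24h, against 92.5, 102 and 106 in NC36h, which did not overlap on the deposited values. Its log2 change was -0.18 (95% interval -0.35 to -0.01, adjusted p by limma = 0.0715), and it passed with quantile normalization (adjusted p by limma = 0.0367) and without NC24h replicate 6 (adjusted p by limma = 0.0451), its range over the alternatives being 0.0367 to 0.962.

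ANXA7 (ENSSSCG00000010299), at 76205238 to 76234646 of chromosome 14, encodes an annexin first known for aggregating secretory granules, with a long N-terminal stretch that it shares in kind with ANXA11. Its FPKM was 96.7, 96.2 and 96.9 in NC24h, against 109, 99.2 and 90.3 in NC36h replicates 4, 5 and 6. The 24 h libraries were thus nearly equal and lay within the range of the 36 h libraries. The log2 change was 0.04 (95% interval -0.15 to 0.22, adjusted p by limma = 0.707), and it was -0.03 without NC36h replicate 4. The intervals of ANXA2, ANXA6 and ANXA7 include 0 and leave out changes of 1 on the log2 scale, the size reached by ANXA5.

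**Figure D3:**
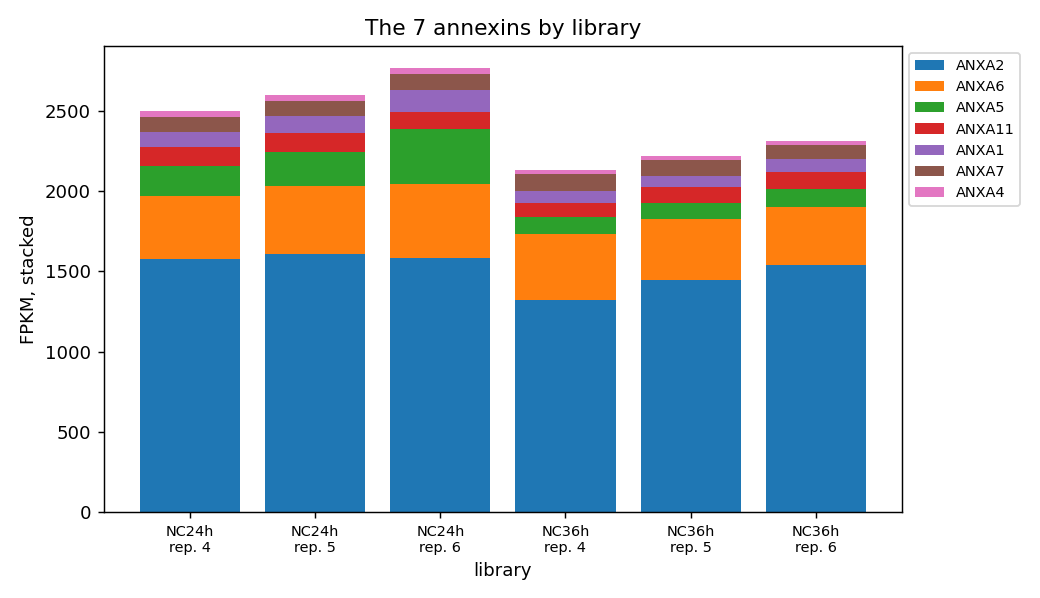
Stacked FPKM of the 7 annexins in each library. The stacks reach 2497 to 2765 in NC24h and 2128 to 2311 in NC36h, ANXA2 fills most of each, and the ANXA5 block is widest in NC24h replicate 6 (341 FPKM).

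The scaling of the libraries bears on the members with small changes. Over all genes tested the median log2 change was -0.16 on the deposited values and -0.003 with median-ratio scaling, which divides a library by its typical ratio to the mean of all libraries. Relative to the median of -0.16, the changes of ANXA2, ANXA6 and ANXA11 were 0.01, 0.01 and -0.02, and that of ANXA7 was 0.19. With median-ratio scaling the changes of ANXA2 and ANXA6 turned to 0.03 and 0.03, that of ANXA11 was -0.01 and that of ANXA7 was 0.21, none of them past the threshold. Quantile normalization gave another picture, with a median of -0.04 over all genes tested. The changes were then -0.17 for ANXA2, -0.17 for ANXA6, -0.21 for ANXA11 and 0.03 for ANXA7. Of these only ANXA11 passed (adjusted p by limma = 0.0367), so the 2 scalings differed for these members. The separation of the groups in ANXA2 and ANXA11 was seen on the deposited values only. Once the libraries are divided by the median-ratio factors, the groups overlap in both genes. The 6 called members kept their direction and their call with median-ratio scaling, with changes of 2.21 for DYSF, 1.45 for TRIM72, -0.41 for ANXA1, -0.46 for ANXA4, -1.03 for ANXA5 and -1.38 for MYOF.

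**Figure D4:**
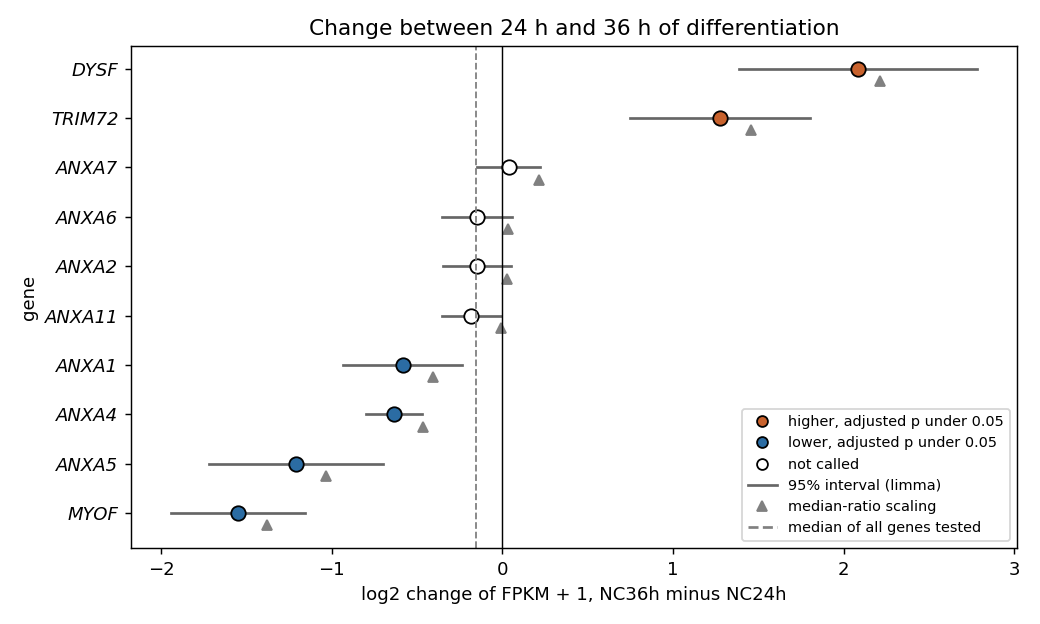
Log2 change of FPKM + 1 from NC24h to NC36h for each member with its 95% interval (limma), filled where the adjusted p was under 0.05. Grey triangles give the change with median-ratio scaling, and the dashed line marks the median of all genes tested (-0.16), next to which ANXA2, ANXA6 and ANXA11 lie.

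Libraries of one group also differed in several members at once. In NC24h, replicate 6 had the lowest DYSF and TRIM72 and the highest MYOF, ANXA5, ANXA1, ANXA4 and ANXA6. It had 0.515 times the mean of replicates 4 and 5 for DYSF and 0.579 times for TRIM72, and 1.47 times for MYOF and 1.38 times for ANXA1. In NC36h, replicate 6 again had the lowest DYSF and TRIM72 and the highest MYOF, ANXA5 and ANXA1, but ANXA4 and ANXA6 went the other way and were lowest there, at 21.9 and 359 FPKM. The summed myogenic markers were also lowest in replicate 6 of each group, at 5311 in NC24h and 19638 in NC36h, where the other NC36h libraries had 22175 and 22193. Of 9 cell cycle genes tested, 7 fell between the groups (background 34.4%). The summed FPKM of the 9 ran from 58.7 to 152 in NC24h and from 20.6 to 26.0 in NC36h. Of 9 fibroblast markers tested, 2 rose (background 16.5%) and 4 fell (background 34.4%). COL3A1, a fibrillar collagen, rose from 241 ± 36.5 to 443 ± 74.4 FPKM (adjusted p by limma = 0.00446) and POSTN, a matrix protein, from 1.74 ± 0.0907 to 2.81 ± 0.233 (adjusted p by limma = 0.00913). DCN, a collagen-binding proteoglycan, fell from 18.8 ± 0.256 to 6.12 ± 0.923 (adjusted p by limma = 0.000640). COL1A2 fell from 693 ± 72.0 to 450 ± 38.2 FPKM, and LUM and LOX fell too. PDGFRA, a receptor of fibroblast progenitors, was under the minimum, at 0.486 ± 0.181 and 0.0859 ± 0.0591. The summed FPKM of the 10 markers in the table overlapped between the groups, with 1100 to 1316 in NC24h and 925 to 1118 in NC36h. The part of these markers in the changes of the members was not tested. In bulk RNA, fewer cells of a type and less RNA per cell cannot be told apart.

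Partners of the members in membrane repair were compared in 5 gene lists with 66 genes, of which 42 had a row with their symbol and 36 could be tested. Of these 36 genes, 22 (61.1%) had a limma adjusted p under 0.05 against 50.9% of all genes. At 36 h, 9 were higher (background 16.5%) and 13 lower (background 34.4%). With median-ratio scaling 13 were higher and 9 lower, and with quantile normalization 10 were higher and 10 lower, so the balance of directions depended on the scaling. The number higher was 5 without NC36h replicate 5 and 5 without NC36h replicate 6. The median log2 change of the 36 genes was -0.09. ANXA9, ANXA13, ANXA10 and FER1L5, the other annexins and ferlins with a row, lay below the FPKM minimum in both groups, and ANXA10 was listed at 0.

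S100 proteins, small calcium sensors that bind to annexins, included larger changes than any annexin. S100A10 holds 2 ANXA2 molecules in a complex, and it rose while ANXA2 did not pass the threshold. Its FPKM went from 501 ± 73.7 to 684 ± 43.1 (SD, n = 3 each), a log2 change of 0.46 (SE 0.12, adjusted p by limma = 0.0188), and the call was lost without NC36h replicate 5 or 6 (adjusted p by limma = 0.0694 and 0.0584). The ratio of S100A10 to ANXA2 was 0.360, 0.319 and 0.267 in NC24h replicates 4, 5 and 6, against 0.479, 0.491 and 0.458 in NC36h, so it was higher in each NC36h library. S100A11, the partner of ANXA1, had 54.7 ± 5.89 and 46.9 ± 5.39 FPKM (log2 change -0.22, adjusted p by limma = 0.1396). S100A1, the S100 protein of striated muscle, rose from 20.0 ± 10.02 to 120 ± 42.7 (log2 change 2.59, adjusted p by limma = 0.00454). S100A6 and S100A4, which are abundant in growing cells, fell by 2.15 and 1.60 on the log2 scale (adjusted p by limma = 0.000586 and 0.00112). Of the 5 S100 genes tested, 2 rose (background 16.5%), 2 fell (background 34.4%) and 1 did not pass.

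Caveolae, the small pits of the surface membrane, and the EHD and PACSIN proteins that shape it, gave 2 genes that rose and 5 that fell among 11 tested. Over all genes tested 16.5% rose and 34.4% fell. CAV3, the gene of caveolin-3, and CAVIN1, CAVIN4 and EHD3 had no row with their symbol, so these counts leave them out. CAV1, the caveolin of most cell types, fell from 98.5 ± 14.5 to 41.9 ± 0.523 FPKM (log2 change -1.20, adjusted p by limma = 0.000752). CAVIN2, a coat protein of caveolae, fell from 51.4 ± 23.3 to 10.5 ± 0.473 (log2 change -2.10, adjusted p by limma = 0.00195). PACSIN3, the muscle form of its family, rose from 23.0 ± 7.30 to 54.8 ± 1.67 (log2 change 1.27, adjusted p by limma = 0.00447). EHD1, an ATPase of membrane recycling, rose from 171 ± 31.4 to 274 ± 16.4 (log2 change 0.69, adjusted p by limma = 0.00712).

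Calpains, SNARE proteins, lysosomal and scramblase genes gave 3 that rose (background 16.5%) and 4 that fell (background 34.4%) among 10 tested. CAPN3, the muscle calpain, which binds to dysferlin, rose from 2.38 ± 1.03 to 18.9 ± 7.71 FPKM, a log2 change of 2.52 (adjusted p by limma = 0.00215). CAPN2, one of the widely expressed calpains, fell from 92.1 ± 5.95 to 55.4 ± 3.57 (log2 change -0.72, adjusted p by limma = 0.00111). LAMP1, a lysosomal membrane protein that reaches the surface when lysosomes fuse with it, rose by a log2 change of 0.25 (adjusted p by limma = 0.0160), a call lost without NC24h replicate 5 or NC36h replicate 5 or 6 (adjusted p by limma = 0.0569, 0.0639 and 0.0506). ANO6, a phospholipid scramblase, fell from 33.8 ± 5.53 to 21.5 ± 0.707 (log2 change -0.62, adjusted p by limma = 0.00509). ANO5, its relative in muscle, whose loss also causes a muscular dystrophy, fell from 11.8 ± 0.964 to 8.85 ± 0.261 (log2 change -0.38, adjusted p by limma = 0.00832). With median-ratio scaling its change was -0.22 and did not pass (adjusted p by limma = 0.0806), nor did it with quantile normalization (0.0860).

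ESCRT genes, whose proteins pinch off damaged membrane, gave 2 that rose, 2 that fell and 6 that did not pass among 10 tested, near the 50.9% of all genes that were called. PDCD6, PDCD6IP, TSG101, CHMP1B, CHMP4A, CHMP4B and CHMP7 of this list had no row with their symbol, so these counts leave them out. CHMP1A rose by a log2 change of 0.52 (adjusted p by limma = 0.00149) and CHMP6 by 0.28 (adjusted p by limma = 0.0435). VPS4B, an ATPase that takes ESCRT filaments apart, fell from 34.9 ± 1.28 to 19.0 ± 1.10 FPKM (log2 change -0.85, adjusted p by limma = 0.000692), and IST1 fell by 0.18 on the log2 scale (adjusted p by limma = 0.0323). The calls of CHMP6 and IST1 were each lost when any 1 of 5 libraries, all but NC24h replicate 6, was left out (adjusted p by limma from 0.0670 to 0.119 for CHMP6 and from 0.0561 to 0.130 for IST1). With median-ratio scaling the change of IST1 was -0.01 (adjusted p by limma = 0.910). IST1 also did not pass with quantile normalization, an untrended variance or the replicate block (adjusted p by limma = 0.0695, 0.0586 and 0.0601), nor CHMP6 with no filter or an untrended variance (adjusted p by limma = 0.0582 and 0.0588). The median log2 change was -0.04 over the ESCRT genes, -0.36 over the caveolar list, 0.01 over the calpain and vesicle list and -0.22 over the S100 genes, beside -0.16 over all genes tested.

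**Figure D5:**
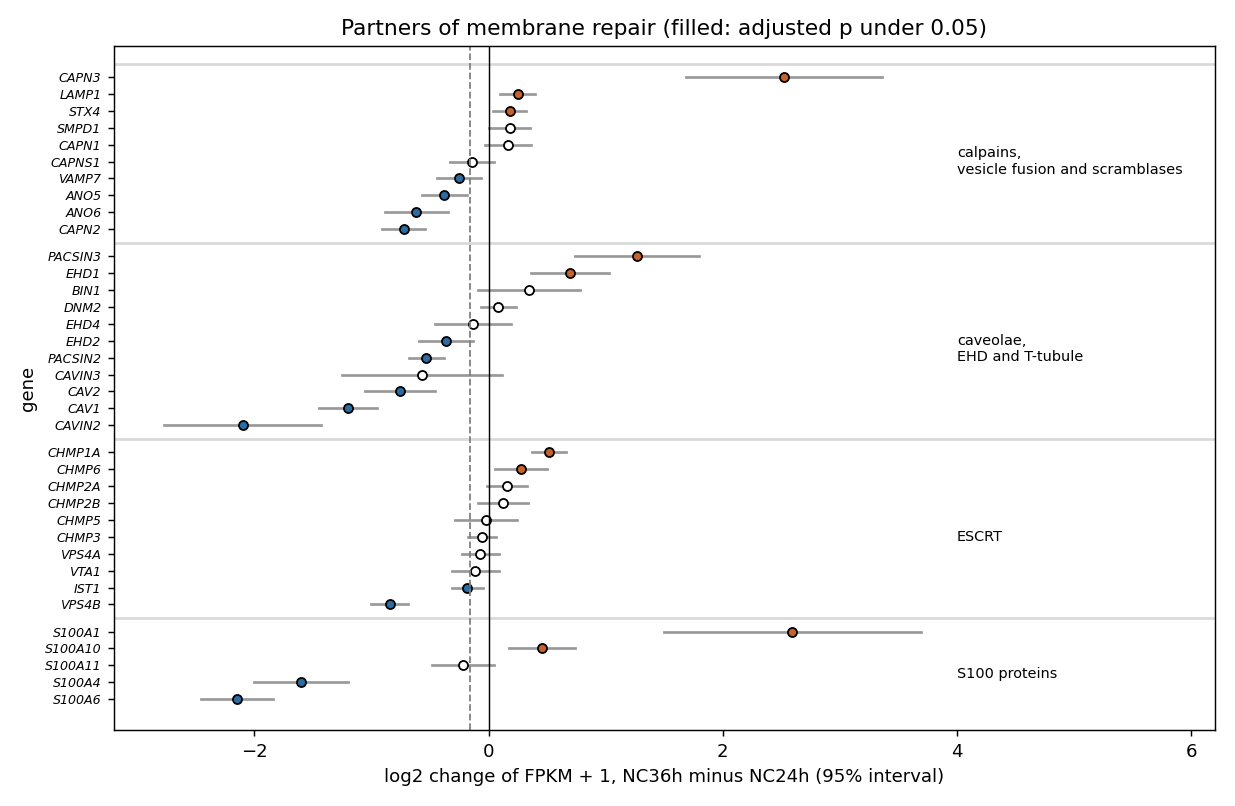
Log2 change of FPKM + 1 from NC24h to NC36h with the 95% interval (limma) for the 36 partner genes tested, by list, filled orange where higher and blue where lower at an adjusted p under 0.05. S100A1, CAPN3 and PACSIN3 lie farthest to the right and S100A6, CAVIN2 and S100A4 farthest to the left, while most ESCRT genes lie near the dashed median of all genes (-0.16).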

How the data were processed

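RNA-seq of 6 PSC libraries was analysed. The authors deposited FPKM values, 1 column per library and none pooled, made from paired-end reads mapped to Sscrofa11.1 and counted with HTSeq. The paper names HISAT2 and StringTie for mapping and assembly, whereas the submitters' processing notes name TopHat2 and Cufflinks. Strandedness and the handling of reads shared between near-identical genes are not given in the sources used here.

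A symbol could be given to 11804 of 25322 Ensembl identifiers, and positions come from RefSeq (Sscrofa11.1). Genes whose FPKM averaged at least 1 over the libraries (14060) entered a linear model of log2(FPKM + 1) in limma 3.58.1 (R 4.3.3) with a moderated, trended variance. Tests were two-sided, and p was adjusted over the 14060 genes by Benjamini-Hochberg, with calls at 0.05. Fragments were recovered from the smallest step of each gene, and 19543 genes with 3 or more values above 0 gave whole numbers (tolerance 0.02). A single fragment on 1 kb equals 0.0457 to 0.0610 FPKM in these libraries.

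Named genes are the members, in each partner list the 2 genes called without overlap that rose most and the 2 that fell most, and S100A10, S100A11 and ANO5. The rule also held AHNAK and CAV3, which had no row with their symbol. Of the marker lists, DES, MYOD1, ACTA1, PDGFRA and DCN are named by the rule. Of 3 endothelial, 6 immune and 2 adipocyte markers with a row, 1, 2 and 0 could be tested. Among those tested 1 passed, CD14, which fell, where 50.9% of all genes tested passed. CD14, CD68, PECAM1, PTPRC, KDR, COL1A2, COL3A1, LUM, LOX, POSTN and the annexins and ferlins below the minimum were named after their values were seen. The members and lists were chosen with earlier results of these data known. The alternatives were other pseudocounts, filters and scalings, an untrended variance, replicate number as a block, limma voom on fragments, and leaving out each library.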

Additional observations from a re-analysis of the deposited data

How the results depend on the processing

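The 6 called members kept their direction in all 15 alternatives, and the number called ranged from 5 to 7. Of the 150 values recomputed for the members, 143 kept direction and side of the threshold. The mean log2 difference of DYSF and MYOF in NC24h moved from -4.29 to -4.99 with a pseudocount of 0.01, by more than its SD between libraries. With median-ratio scaling the log2 change of ANXA2 turned from -0.15 to 0.0289 and that of ANXA6 from -0.15 to 0.0304. That scaling moved the median of all genes by more than 0.1. Quantile normalization did so too, but with it the changes of ANXA2 and ANXA6 were -0.17 and -0.17. Without 1 library each, the log2 change of ANXA7 ranged from -0.0290 (without NC36h replicate 4) to 0.105. ANXA1 lost its call without NC36h replicate 4 or 5, and ANXA11 gained one with quantile normalization and without NC24h replicate 6. Without 1 library each, the number of partner genes called higher ranged from 5 to 11 and the number called in all from 15 to 24. The fit with the replicate block called 6 members and 20 partner genes, 8 of them higher. The main model held the time point only and treated the samples as unpaired. Across genes, libraries with the number 4, 5 or 6 deviated from their groups with correlations of 0.15, -0.02 and 0.18. Correlations between unlike numbers were not taken, so these values cannot decide whether the samples were paired. DYSF in NC24h had the fewest fragments, 95 to 213 a library, with a counting error of about 8.33% beside a replicate SD of 36.5% of the mean. Every other member had at least 832 fragments in each library.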
